A study of Arabidopsis thaliana with 6 samples.

Results

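The bHLH transcription factor UPBEAT1 (UPB1, AT2G47270) and the class III peroxidase genes known as its direct targets, PER39 (AT4G11290), PER40 (AT4G16270) and PER57 (AT5G17820), were followed in roots of the spy-3 mutant of Arabidopsis thaliana. The rule that names these 4 genes uses their known function and no value of these arrays, although it was written with earlier results of the arrays known. They were taken out of 13333 genes that a probe set is annotated to alone. Each had 1 such probe set. Roots of 7 d seedlings were compared on Affymetrix ATH1 arrays, with 3 arrays for spy-3, a mutant in the Col ecotype, and 3 for wild type of the same ecotype. All seedlings grew untreated on MS agar in vertical plates with 16 h of light per day, and 1 mutant allele was used. SPY encodes a protein O-glycosyltransferase first known as a repressor of gibberellin signaling, and the study asked which root genes the mutation affects. The replicates are described as biological, but whether they were separate harvests is not stated in the sources used here, so the spread behind each p-value is that among these arrays.

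A root grows by cell division in the meristem at its tip and by elongation of the cells that leave it. Superoxide predominates in the dividing zone and hydrogen peroxide in the elongating zone, and UPB1, which is expressed where one zone passes into the other, represses peroxidase genes and thereby shifts this balance. Class III peroxidases are secreted heme enzymes. They use hydrogen peroxide to oxidize phenolic substrates such as those of the cell wall, and under some conditions they also produce reactive oxygen species. Loss of UPB1 is known to enlarge the meristem, and its overexpression to shorten it.

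None of the 4 genes passed an adjusted p of 0.05 between spy-3 and wild type (limma, adjusted over all 22746 probe sets), where 5.77% of all probe sets passed. At an unadjusted p of 0.05, 2 of the 4 passed by limma, and 2 also by a plain one-way analysis of variance, against 19.2% of all probe sets by limma. These 2 genes were UPB1 and PER57. UPB1 passed at the unadjusted threshold in all 15 other settings, whereas PER57 did not in 7 of them, which were quantile normalization, limma without the trend, the replicate block and the omission of spy-3 replicate 1 or 3 or of wild-type replicate 2 or 3. In both of them the arrays of the genotypes did not overlap, as was the case for 24.2% of all probe sets. The signal of UPB1 was higher on all 3 spy-3 arrays than on any wild-type array, as in 12.7% of all probe sets, and that of PER57 was lower, as in 11.5%. The 2 other targets overlapped between genotypes.

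UPB1, the regulator, had a signal of 381.8, 341.7 and 351.8 on the spy-3 arrays, against 318.8, 297.3 and 304.2 on the wild-type arrays. The lowest spy-3 array was thus above the highest wild-type array. The mean was 358 ± 20.9 in spy-3 and 307 ± 11.0 in wild type (SD, n = 3 each), which is 16.8% higher in spy-3. Its log2 fold change was 0.22, with a standard error of 0.0566 and a 95% confidence interval from 0.09 to 0.36 (limma, adjusted p = 0.0843). Before adjustment for the number of probe sets, this interval ran from 1.06-fold to 1.28-fold higher. A larger absolute log2 fold change was seen in 43.5% of all probe sets.

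**Figure D1:**
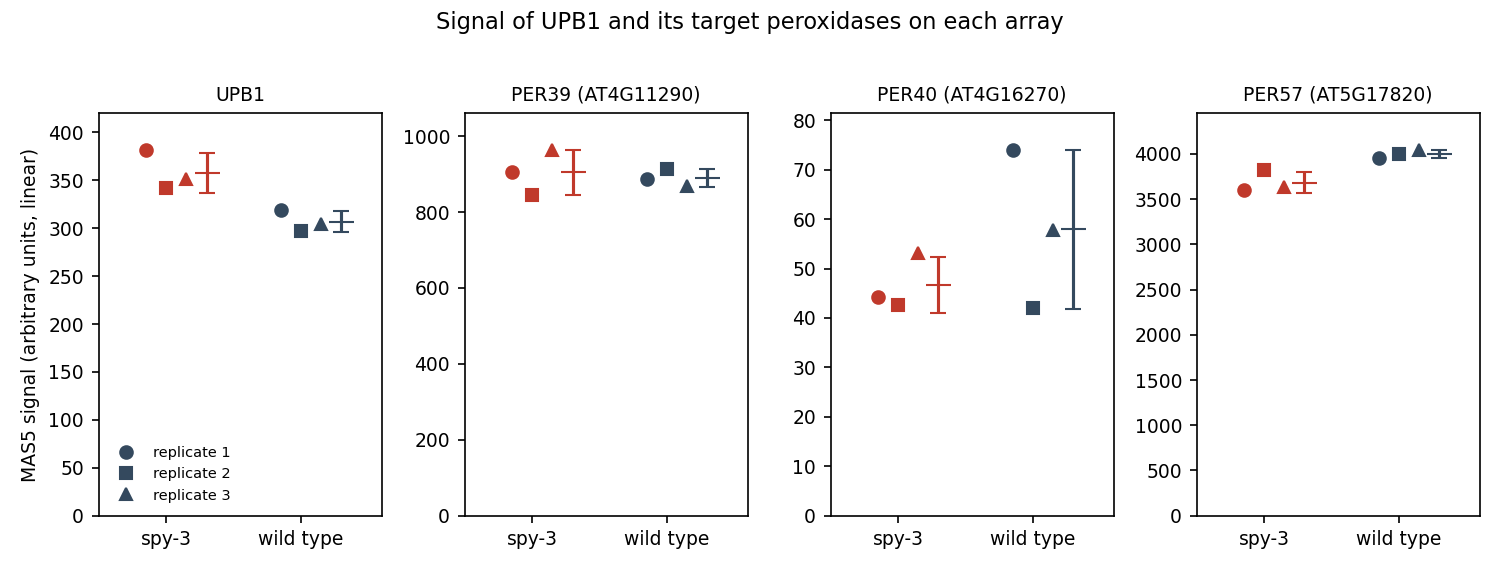
Linear MAS5 signal (y axis, starting at 0) of UPB1, PER39, PER40 and PER57 on the 3 spy-3 and the 3 wild-type arrays. Symbols are replicates, and the bar beside them is the mean with its SD. The genotypes do not overlap for UPB1 and PER57, and they overlap for PER39 and PER40.

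PER57, the target with the smallest relative spread between arrays, had a signal of 3598.2, 3818.0 and 3631.1 in spy-3 and 3955.1, 3994.8 and 4044.4 in wild type. Every spy-3 value was under every wild-type value. The mean was 3682.4 ± 119 in spy-3 and 3998.1 ± 44.7 in wild type (SD, n = 3 each). Relative to wild type the log2 fold change was -0.12, with a standard error of 0.0403 and a 95% confidence interval from -0.22 to -0.02 (limma, adjusted p = 0.171). The ratio of spy-3 to wild type therefore lay between 0.861 and 0.985 before adjustment, so that a decrease beyond these bounds is outside the interval. The coefficient of variation was 3.22% in spy-3 and 1.12% in wild type.

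PER39 was the target nearest to no change. Its signal was 906.2, 844.8 and 963.9 in spy-3 and 888.4, 914.3 and 867.9 in wild type. The spy-3 arrays held both the lowest and the highest of the 6 values. The mean was 905 ± 59.6 in spy-3 and 890 ± 23.3 in wild type (SD, n = 3 each). The log2 fold change of 0.02 had a standard error of 0.0548 and a 95% confidence interval from -0.11 to 0.15 (limma, adjusted p = 0.881). The interval covered ratios of spy-3 to wild type from 0.926 to 1.11. The sign rested on single arrays, and without spy-3 replicate 3 the log2 fold change was -0.02.

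PER40 was the least precisely measured of the 4 genes. Its signal was 44.3, 42.6 and 53.1 in spy-3 and 74.0, 42.0 and 57.8 in wild type. Wild-type replicate 2 was the lowest of the 6 arrays and wild-type replicate 1 the highest. The mean was 46.7 ± 5.64 in spy-3 and 57.9 ± 16.0 in wild type (SD, n = 3 each), and the coefficients of variation were 12.1% and 27.6%. PER40 had a log2 fold change of -0.28, with a standard error of 0.236 and a 95% confidence interval from -0.85 to 0.29 (limma, adjusted p = 0.596). Ratios of spy-3 to wild type from 0.555 to 1.22 were inside this interval, so that the values could not tell a marked decrease or a small increase from no change. Without wild-type replicate 1 the value was -0.09, and without wild-type replicate 2 it was -0.49 (limma, adjusted p = 0.896 and 0.322).

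Because UPB1 is a repressor of these peroxidases, each target was also set against UPB1 on the same array, as the difference in log2 signal. This difference shows whether both changed by the same amount and is not affected by the scaling of an array. For PER57 it was 3.24, 3.48 and 3.37 in spy-3 and 3.63, 3.75 and 3.73 in wild type. All 3 spy-3 arrays were lower, and the means differed by -0.34. Since UPB1 was higher and PER57 lower on every spy-3 array, this separation and its p-value were fixed by those signals and add nothing to them. For PER39 it was 1.25, 1.31 and 1.45 in spy-3 and 1.48, 1.62 and 1.51 in wild type. All 3 spy-3 arrays were lower, and the means differed by -0.20. Because the signal of PER39 itself hardly differed, with a log2 fold change of 0.02, this separation restates the higher signal of UPB1 and adds nothing to it. For PER40 it was -3.11, -3 and -2.73 in spy-3 and -2.11, -2.82 and -2.40 in wild type, and the genotypes overlapped, with a difference between means of -0.50. The two-sided exact permutation p was 0.1 for PER57, 0.1 for PER39 and 0.2 for PER40, or 0.15, 0.15 and 0.2 when adjusted over these 3 comparisons. A p of 0.1 is the smallest that 3 arrays against 3 can give, so no comparison of this kind could pass a threshold of 0.05. The 3 differences share the UPB1 values, each containing its log2 fold change of 0.22, and are not independent of one another.

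**Figure D2:**
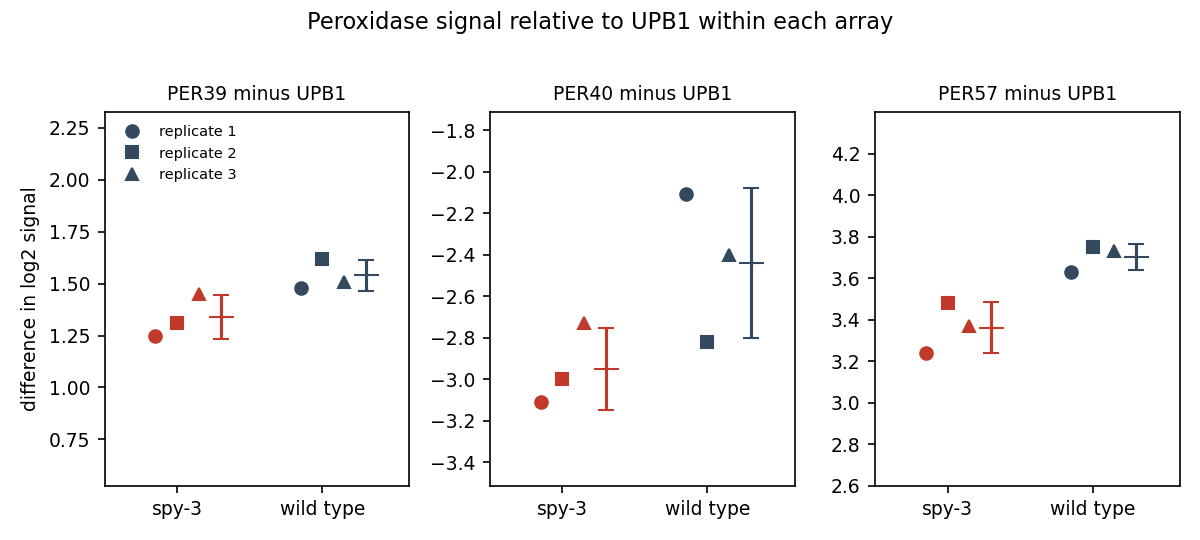
Difference in log2 signal between each target peroxidase and UPB1 on the same array (y axis, each panel spanning the same number of log2 units), for spy-3 and wild type. Symbols are replicates, and the bar beside them is the mean with its SD. All spy-3 arrays lie under all wild-type arrays for PER39 and PER57, and the genotypes overlap for PER40.

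The targets belong to a family of 73 listed class III peroxidases, of which 55 were measured, meaning that a probe set is annotated to the gene alone. The annotation lists no gene for 8730 of the 22746 probe sets. A gene not measured in this sense may therefore still be read by the array. Of these 55, 9 were lower in spy-3 (3.13% of all probe sets were), 4 were higher (2.64% of all probe sets were) and 42, including all 3 targets, did not pass (limma, adjusted p of 0.05). Both counts fell whichever array was left out, and each omission also leaves fewer arrays to test with. The lower count was 4 without wild-type replicate 2 and 5 without spy-3 replicate 3, and the higher count was 2 without any 1 of spy-3 replicate 1, 2 or 3 or wild-type replicate 1 or 2. Over all probe sets, 712 were lower and 600 higher, and leaving out any 1 array gave counts of 312 to 496 lower and 203 to 377 higher. The family's log2 fold changes had a median of 0.01, with quartiles at -0.31 and 0.37, beside a median of 0.02 and quartiles at -0.17 and 0.19 over all probe sets. PER57 and PER39 lay inside the quartiles of both. A larger absolute log2 fold change than that of PER57 was seen in 43 of the 55 peroxidases, than that of PER39 in 51 and than that of PER40 in 31. PER57 and PER39 thus stood in the middle of the family, with 22 and 28 peroxidases at a lower log2 fold change. PER40 stood near the lower quartile, with 15 at a lower log2 fold change. Dim and uncalled genes widen this order. Its ends were PER6 (log2 fold change -0.95, means of 4.47 in spy-3 and 6.37 in wild type) and PER65 (1.53, means of 11.7 and 4.93). The ranks and quartiles therefore partly set the bright PER57 and PER39 against imprecise values.

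**Figure D3:**
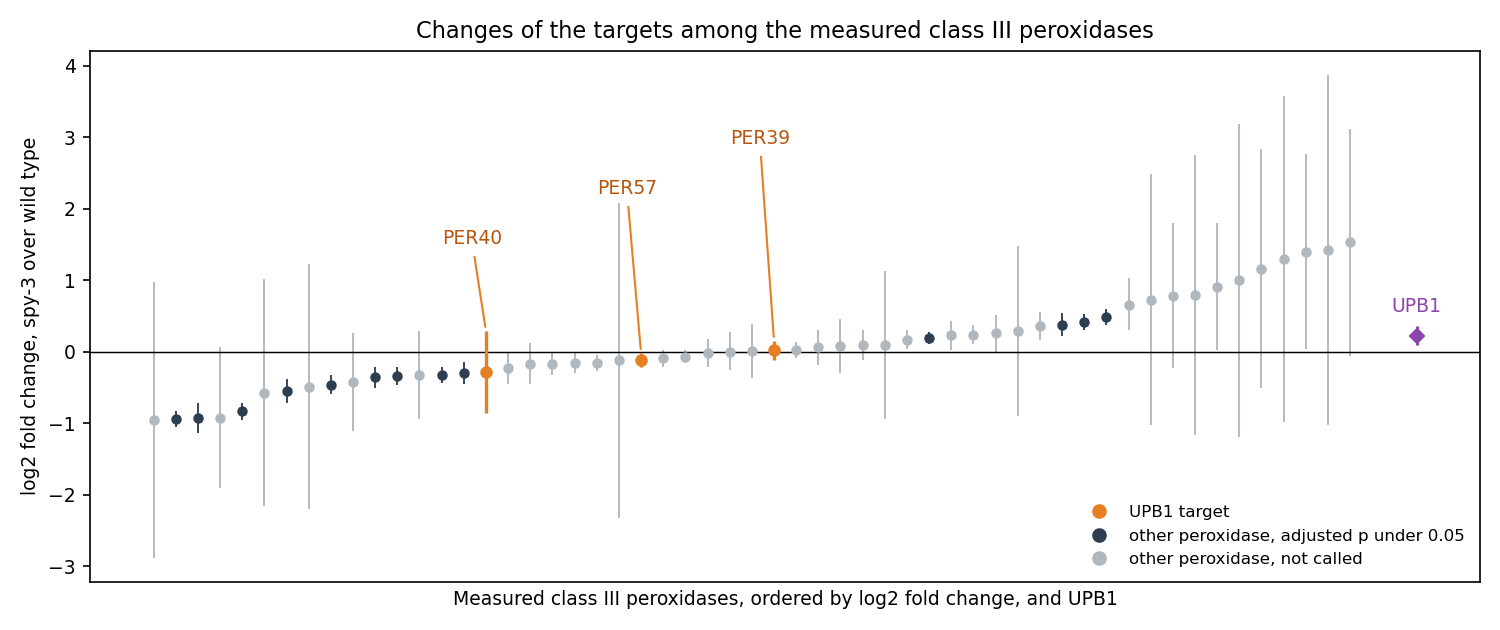
The log2 fold change of spy-3 over wild type (y axis) for the 55 measured class III peroxidases in order of size, with UPB1 at the right. Points are limma estimates, bars are 95% confidence intervals, dark points are the 9 lower and 4 higher genes at an adjusted p of 0.05, and orange points are the targets. The targets PER57, PER39 and PER40 have log2 fold changes of -0.12, 0.02 and -0.28. PER57 and PER39 are in the middle of the order and PER40 is lower in it, and the interval of PER40 is the widest of the 3.

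Among the called peroxidases, chosen here after their values were seen, the smallest change was that of PER55, which rose by 0.19 on the log2 scale (limma, adjusted p = 0.0231), less than the uncalled 0.22 of UPB1. The 4 peroxidases of lowest adjusted p changed by more. PER71 (AT5G64120) averaged 1867.7 ± 88.9 in spy-3 and 3585 ± 75.5 in wild type (SD, n = 3 each), a log2 fold change of -0.94 (limma, adjusted p = 0.000524). PER8 (AT1G34510) averaged 464 ± 28.3 in spy-3 and 825 ± 13.5 in wild type (SD, n = 3 each), with a log2 fold change of -0.83 (limma, adjusted p = 0.00086). Both genes fell in spy-3 by more than the lower bound of the interval of PER57 or PER39. PER47 (AT4G33420) fell by 0.93 on the log2 scale, and PER66 (AT5G51890), a peroxidase tied to lignification of xylem, rose by 0.49 (limma, adjusted p = 0.00291 and 0.00331). The study itself selected PER8, PER47 and PER71 on these samples, so their direction on the arrays is not independent evidence. It also measured its selected redox genes by quantitative RT-PCR and reported most of them as reduced in spy-3. The other peroxidases it selected, PERX33, PERX34 and PERX73, have no named probe set of their own here, so the family counts above leave them out.

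Other genes of the same redox and zonation pathway were sparsely represented among the named probe sets. Of 19 listed regulators of the meristem and of its passage into elongation, 1 was measured. This was BABY BOOM (BBM), a PLETHORA-clade AP2 transcription factor of the meristem, with 34.8, 34.8 and 30.7 in spy-3 and 38.6, 25.7 and 29.3 in wild type. The genotypes overlapped, and the log2 fold change was 0.12 (limma, adjusted p = 0.833). Of 24 listed enzymes that make or remove superoxide and hydrogen peroxide, 3 were measured in the sense of a named probe set of their own. All are NADPH oxidase homologs. The catalase gene CAT3, which the study selected from its array data, was not among them. The oxidase homolog RBOHG (AT4G25090), also selected by the study on these samples, fell to 112 ± 4.77 in spy-3, against 216 ± 11.2 in wild type (SD, n = 3 each; log2 fold change -0.94, limma, adjusted p = 0.00123). RBOHE and RBOHI had log2 fold changes of -0.01 and -0.27 (limma, adjusted p = 0.941 and 0.513). The 14 listed small atypical bHLH genes, a group that includes relatives of UPB1, and the 16 listed markers of dividing cells were annotated to no single-gene probe set. They were not analysed here, although probe sets without a listed gene may read them. The share of meristem in these roots was thus not examined.

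The arrays differed in the marker genes of other cells alongside UPB1 and PER57. Of 14 listed root hair markers 2 were measured, the expansin genes EXPA7 and EXPA18, and both were lower in spy-3 (log2 fold changes -0.44 and -0.29, limma, adjusted p = 0.00274 and 0.018). Their summed signal was 1586.3 to 1702.8 in spy-3 and 2073.9 to 2155.1 in wild type. Of 9 green tissue markers 3 were measured, with a summed signal of 293.5 to 326.6 in spy-3 and 436.5 to 478.6 in wild type. Nearly all of this sum was RCA, with means of 290 in spy-3 and 429 in wild type. RCA, the Rubisco activase gene, was the only 1 of these 3 that passed (log2 fold change -0.57, limma, adjusted p = 0.0027). The dim SBPASE averaged 10.5 in spy-3 and 23.4 in wild type (log2 fold change -1.43, limma, adjusted p = 0.393), and PRK averaged 8.37 in spy-3 and 6.6 in wild type. The part of these cells in the values of UPB1 and PER57 was not tested. In RNA of whole roots, fewer cells of a type and less RNA per cell cannot be told apart, and the small zone where UPB1 acts was not separated from the rest of the root. Of 10 listed root tissue markers only the cortex marker CO2 was measured, at 19.2, 34.6 and 17.3 in spy-3 and 56.2, 59.5 and 57.5 in wild type. No spy-3 array reached the wild-type range, and the log2 fold change of -1.35 did not pass (limma, adjusted p = 0.0517).

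The genes whose signal followed each member most closely over the 6 arrays were sought among 5975 or 5976 genes brighter than the median probe set. With 6 arrays of 2 genotypes a high coefficient is reached by some gene for almost any pattern, so these coefficients describe the arrays only. UPB1 and PER57 separate the genotypes, so genes picked to follow them differ in the same direction by selection. The directions and p-values of these genes are therefore no separate support. The pattern of UPB1 was followed by AT1G21010, AT2G34300 and AT4G36500 (Pearson r of 0.994, 0.989 and 0.988). Of these, AT4G36500 rose, to 1059.6 ± 81.2 in spy-3 against 787 ± 53.0 in wild type (SD, n = 3 each; log2 fold change 0.43, limma, adjusted p = 0.0235). The pattern of PER57 was followed by the transcription factor gene MYBC1, AT5G64130 and AT3G18170 (r of 0.996, 0.987 and 0.987). MYBC1 averaged 411 ± 28.5 in spy-3 and 478 ± 11.2 in wild type (SD, n = 3 each; limma, adjusted p = 0.0911), and AT3G18170 fell by 0.32 on the log2 scale (limma, adjusted p = 0.0267). PER39 was followed by AT1G04900, AT5G40960 and TRM26 (r of 0.968, 0.958 and 0.958), and PER40 by AT1G26300, AT1G06060 and CW14 (r of 0.964, 0.962 and 0.95). None of these last 6 genes passed, their log2 fold changes lying between -0.06 and 0.12. No gene was named for more than 1 member.

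By position, the 4 genes do not neighbor one another. UPB1, PER39 and PER57 overlapped no other locus of TAIR10.1, whereas PER40 overlapped AT4G16267, a transcribed pseudogene, and which stretch the probe set of PER40 reads is not given in the sources used here. The neighboring gene of PER40, NRPB9B, which encodes an RNA polymerase subunit, averaged 205.5 ± 10.2 in spy-3 and 223 ± 14.2 in wild type (SD, n = 3 each; log2 fold change -0.12, limma, adjusted p = 0.426). AT4G11300, next to PER39, had a log2 fold change of 0.16 (limma, adjusted p = 0.368). AT2G47280, next to UPB1, and AT5G17830, next to PER57, were dim, with means of 10.1 and 4.3 in spy-3 and 8.4 and 7.0 in wild type, and were not called.

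The absence of a call held in every setting tried, each adjusted over all probe sets or over those left by the filter on dim ones. An adjustment over the 4 genes alone was not made. Over 15 other settings, none of the 4 genes passed an adjusted p of 0.05, and the lowest value was 0.0578, for UPB1 when the dimmest 40% of probe sets were left out. The log2 fold change of UPB1 stayed between 0.18 and 0.26, and that of PER57 between -0.15 and -0.10. An adjusted p above the threshold does not show that a transcript was unchanged, and the intervals above give the sizes that remain possible for each gene.

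**Figure D4:**
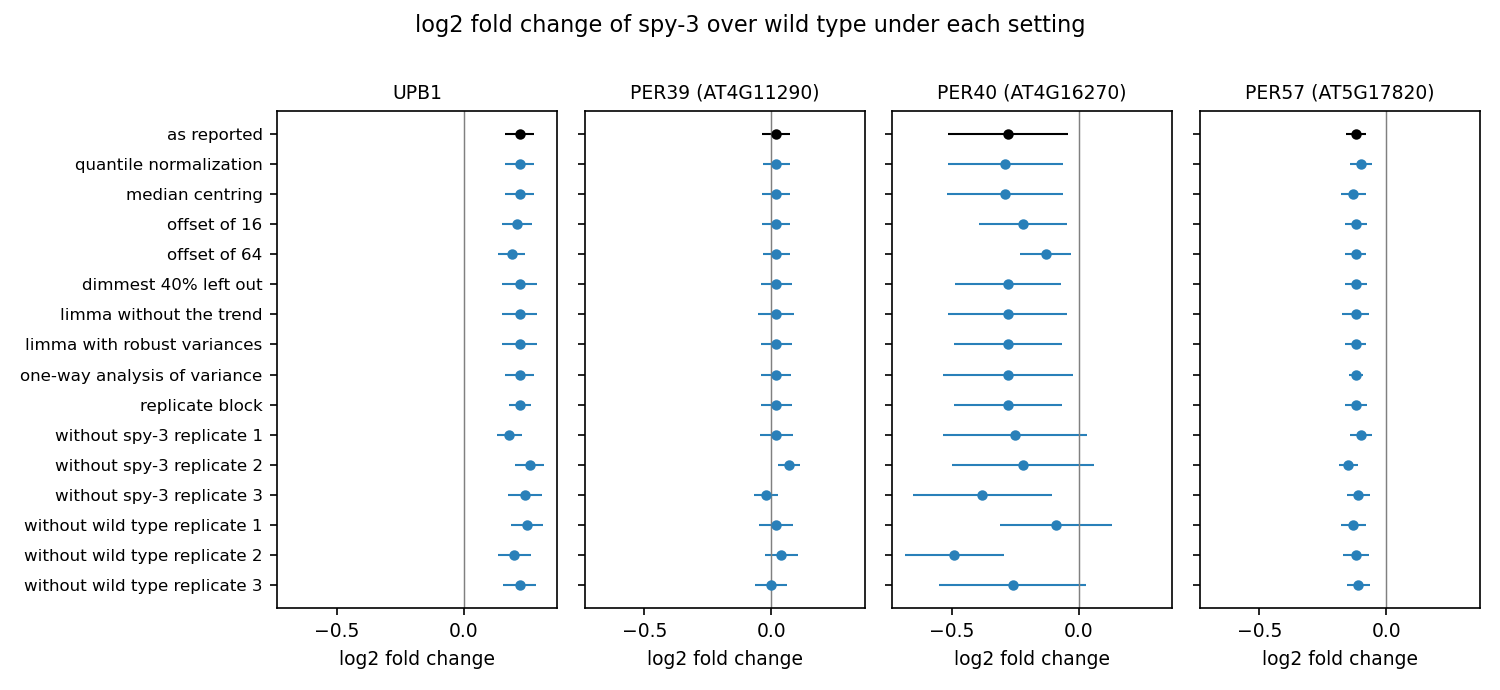
The log2 fold change of spy-3 over wild type (x axis, the same in all panels) for UPB1, PER39, PER40 and PER57, as reported (black) and under 15 other settings (blue). Points are estimates and bars are 1 standard error. UPB1 stays above 0 and PER57 under it in every setting, PER39 lies near 0 on either side, and PER40 moves with single wild-type arrays, between -0.49 and -0.09.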

How the data were processed

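Roots of 3 spy-3 and 3 wild-type samples were measured on ATH1 arrays. The deposited intensity values are linear MAS5 signals, as the submitters' processing notes have it, which the authors had scaled so that the means without the lowest and highest 2% agree between arrays (248.2 to 248.3). The MAS5 version is not given in the sources used here. Median signals were 85.4 to 87.2, and arrays of 1 genotype correlated with r of 0.958 to 0.966, against 0.952 to 0.963 between genotypes. No arrays were identical. The number of arrays limits the precision.

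Values below 1 were raised to 1 before log2 was taken. The contrast of spy-3 with wild type was fitted by limma 3.58.1 (R 4.3.3, mean-variance trend), with Benjamini-Hochberg adjustment across the 22746 probe sets. Tables and plots were made with Python 3.11.15, pandas 2.3.3 and matplotlib 3.10.9. The limma step was tested on simulated data. Probe sets were named through the platform annotation and the RefSeq gene table of TAIR10.1, which served for names and gene order only. Of 13513 single-gene probe sets, 13484 matched a locus. A further 503 probe sets list several genes and 8730 list none. The brightest was taken per gene. The signals of different probe sets are not comparable as levels.

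The 4 members and all lists were chosen with earlier results of these data known. Named are the members, up to 4 genes of lowest adjusted p per list, every measured transition regulator and the 3 genes most correlated with each member. The marker CO2, uncalled genes of the oxidase and marker lists and neighboring genes were added after their values were seen. Naming the peroxidases closest in protein sequence was planned and not done. Alternatives were other scalings, offsets of 16 and 64, a filter on dim probe sets, other variance models, an analysis of variance, the replicate number as a block, stricter thresholds and leaving out each array.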

Additional observations from a re-analysis of the deposited data

How the results depend on the processing

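The directions of UPB1, PER40 and PER57 held in all 15 alternatives, and none of the members passed in any. PER39 turned to -0.02 without spy-3 replicate 3. Leaving out 1 array at a time gave log2 fold changes from 0.18 to 0.26 for UPB1 (limma, adjusted p from 0.109 to 0.237), -0.02 to 0.07 for PER39, -0.49 to -0.09 for PER40 and -0.15 to -0.10 for PER57. The differences between target and UPB1 (alternatives chosen after seeing the data) then lay from -0.26 to -0.16 for PER39, -0.69 to -0.34 for PER40 and -0.40 to -0.28 for PER57, and kept their direction. The lower and higher probe sets numbered 712 and 600, against 312 to 496 and 203 to 377 without 1 array, 374 and 268 in limma without the trend, 371 and 287 by the analysis of variance and 182 and 99 where the change had to reach 1.5-fold with an adjusted p of 0.01. Lower and higher peroxidases numbered 9 and 4, against 4 to 8 and 2 to 3 without 1 array. The lower count was 5 without the trend, 5 by the analysis of variance, 5 without spy-3 replicate 3, 4 without wild-type replicate 2 and 3 at the stricter threshold. The higher count was 2 without the trend, 7 with the dimmest 40% left out and 0 at the stricter threshold. The causes were not tested.

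Same-numbered arrays of the 2 genotypes did not deviate together more than others (r of 0.18, -0.15 and 0.18, against -0.34 to 0.25 for other pairs). These few values cannot decide whether same-numbered samples were handled together, which is not stated in the sources used here. With the replicate number as a block, 391 probe sets were lower and 265 higher, 2 peroxidases were higher, and the log2 fold changes of the members were the same, 0.22 for UPB1, 0.02 for PER39, -0.28 for PER40 and -0.12 for PER57 (limma, adjusted p = 0.0933, 0.891, 0.559 and 0.279). No member had another annotated probe set, so that alternative gave no value. The number of arrays and the low signal of PER40 limit its precision.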

Other observations

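Some peroxidases outside the 55 share a probe set with a second gene, so that the genes of a pair cannot be separated. The probe set of PER14 and PER15 had signals of 371.1, 313.7 and 366.7 in spy-3 and 527.0, 530.3 and 426.4 in wild type, all spy-3 values being lower (log2 fold change -0.49, limma, adjusted p = 0.0535). That of PER22 and PER23 averaged 1771.9 ± 166 in spy-3 and 2201.7 ± 200 in wild type (SD, n = 3 each), also without overlap (log2 fold change -0.31, limma, adjusted p = 0.116). Neither passed, and all spy-3 values were likewise lower in 11.5% of all probe sets and in 16 of the 55 peroxidases. The dim probe set that holds PER29 overlapped between genotypes (log2 fold change 0.33, limma, adjusted p = 0.753). That of PER50 and PER51 averaged 749 ± 106 in spy-3 and 759 ± 65.4 in wild type (SD, n = 3 each; limma, adjusted p = 0.941).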
